A study of Mus musculus with 15 samples.

Results

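The genes described here are 38 genes of the cell division cycle, chosen by name and measured in whole lung. They comprise 23 mitotic genes, whose products build and control the mitotic spindle, and 15 S-phase genes, whose products copy the DNA. All 38 were found by symbol among the 46603 genes of the deposited count table, and all 38 passed the filter on low counts, which left 15870 genes to test. The lungs came from athymic Swiss nude (Foxn1nu/nu) mice, male or female, aged 8 to 12 weeks, which lack a functional thymus. The samples were 4 control lungs (CTR, lungs 1, 2, 4 and 5), 6 lungs of SCR-treated mice (lungs 1 to 6) and 5 lungs of PT-bearing mice (lungs 1, 2, 3, 5 and 6), 1 library per lung. SCR is the secretome, the mix of molecules that cells release into their medium, of 143B cells, a human osteosarcoma line, and it was injected intraperitoneally at 25 µL per day for 1 week. PT-bearing mice carried a primary tumour grown from 143B Luc+ cells implanted under the skin of the flank, and their lungs were taken at a tumour volume of 50 to 60 mm3. The methods give the controls of the injected mice as vehicle-treated, while other passages call controls healthy or untreated, so the exact treatment of the CTR lungs is not known here. Both models rest on a single human cell line in mice with few mature T cells, and the comparisons share lungs, since CTR, SCR and PT each enter more than 1 of them.

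A dividing cell passes through phases, each with its own set of transcripts. In G1, E2F transcription factors are released from the retinoblastoma protein and switch on the genes for the replication machinery, and in S phase the Mcm helicase opens the DNA while ribonucleotide reductase, thymidylate synthase and thymidine kinase supply the building blocks. In G2 and M, the MuvB complex with B-Myb and FoxM1 switches on cyclin B, Cdk1 and the spindle genes, and the anaphase promoting complex then removes many of their proteins. In a healthy adult lung few cells divide at any time, so these transcripts are rare. In bulk RNA, a lower level can come from fewer dividing cells or from less of the transcript in each cell, and these cannot be told apart here.

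The promoters of the mitotic and S-phase sets carried different short sequences. In RefSeq windows of GRCm38.p6 that run from 250 bases before to 50 bases after the start of each gene, 32 of the 38 genes had a window, and 6 were not matched (Ccna2, Aurkb, Kif20a, Tpx2, Mcm4 and Gins2). The cell cycle homology region, searched as TTTGAA or TTCGAA on both strands and read by the MuvB complex, was present in 15 of 19 mitotic windows (78.9%) and 2 of 13 S-phase windows (15.4%), against 19.4% of all 27025 windows. The CCAAT box, searched on both strands and read by NF-Y, was present in 17 of 19 mitotic windows (89.5%) and 8 of 13 S-phase windows (61.5%), against 37.9% of all. The E2F element, searched as TTTCCCGC, TTTGGCGC, TTTCGCGC or TTTGCCGC on both strands, was present in 1 of 19 mitotic windows (5.26%) and 6 of 13 S-phase windows (46.2%), against 2.32% of all. The 6 S-phase windows with it were those of Mcm3, Mcm5, Mcm6, Mcm7, Cdc6 and Cdt1, and the mitotic window was that of Cdk1. In Mcm7 the E2F element and a CCAAT box share bases. These matches are descriptions of letters, and no binding was measured.

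Promoter stretches of 7 genes are shown from 140 bases before to 30 bases after the start, 5′ to 3′ on the strand of the gene. Cdk1, Hmmr, Prc1, Top2a and Mcm6 are among the genes with large differences between PT and SCR, and Mcm7 and Pcna did not follow their set. Some genes not shown differed as clearly. Of these, Plk1 held a cell cycle homology region and a CCAAT box, and Ccnb1 held CCAAT boxes alone. Mcm2 held a cell cycle homology region but no E2F element, and Tk1 held none of the elements searched. Capitals mark the elements searched, on either strand, so a CCAAT box on the other strand reads ATTGG.
Cdk1 (chr10:69352883-69353052, minus strand): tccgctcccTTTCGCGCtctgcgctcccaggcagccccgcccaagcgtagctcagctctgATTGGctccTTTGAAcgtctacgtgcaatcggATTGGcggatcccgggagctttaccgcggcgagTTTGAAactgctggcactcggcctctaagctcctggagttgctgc
Hmmr (chr11:40733408-40733577, minus strand): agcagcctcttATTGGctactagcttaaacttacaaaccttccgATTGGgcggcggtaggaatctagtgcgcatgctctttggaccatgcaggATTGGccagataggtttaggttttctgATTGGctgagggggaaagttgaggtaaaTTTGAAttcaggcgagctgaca
Prc1 (chr7:80294311-80294480, plus strand): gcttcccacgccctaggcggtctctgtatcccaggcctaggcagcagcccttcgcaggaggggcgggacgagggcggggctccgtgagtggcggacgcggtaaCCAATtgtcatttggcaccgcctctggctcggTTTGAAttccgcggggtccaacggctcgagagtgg
Top2a (chr11:99024160-99024329, minus strand): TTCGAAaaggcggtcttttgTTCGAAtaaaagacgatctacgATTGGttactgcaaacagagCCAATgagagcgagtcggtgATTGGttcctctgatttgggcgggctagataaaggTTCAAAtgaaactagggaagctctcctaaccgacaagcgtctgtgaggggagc
Mcm6 (chr1:128359676-128359845, minus strand): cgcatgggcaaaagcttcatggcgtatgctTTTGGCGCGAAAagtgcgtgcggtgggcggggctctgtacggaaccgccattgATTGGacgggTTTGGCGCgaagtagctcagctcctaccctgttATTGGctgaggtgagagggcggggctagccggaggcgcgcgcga
Mcm7 (chr5:138171854-138172023, minus strand): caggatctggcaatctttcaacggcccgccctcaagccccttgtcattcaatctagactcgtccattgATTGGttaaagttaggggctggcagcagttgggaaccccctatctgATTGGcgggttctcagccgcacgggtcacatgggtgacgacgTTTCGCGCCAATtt
Pcna (chr2:132253151-132253320, minus strand): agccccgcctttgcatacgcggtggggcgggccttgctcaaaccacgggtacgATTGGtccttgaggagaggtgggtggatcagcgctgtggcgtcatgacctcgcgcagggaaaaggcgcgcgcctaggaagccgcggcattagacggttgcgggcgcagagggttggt

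Cdk1, Hmmr, Prc1 and Top2a each hold the cell cycle homology region downstream of a CCAAT box, and both elements occurred together in 15 mitotic windows against 7.70% of all windows. The Mcm6 stretch holds 3 E2F elements and CCAAT boxes, and the E2F elements on either strand at the 5′ end share bases. The Pcna stretch holds a CCAAT box alone.

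Total counts were 12767431 to 22109856 per lung. At that depth the mitotic genes had few reads, from 6 reads of Ccnb1 in SCR lung 1 to 688 reads of Mki67 in PT lung 3, and the S-phase genes had 15 reads (Gins2 in SCR lung 3) to 1018 reads (Pcna in CTR lung 4). Summed over the 15 lungs, Ccnb1, Plk1, Aurkb, Cdc6 and Aurka had the fewest reads of the 38, so counting error weighs most on them. No sex is given per lung in the labels. Xist and the Y-linked transcripts put SCR lungs 4 and 6 and PT lungs 3 and 5 as female, and every CTR lung and the remaining SCR and PT lungs as male. The calls are not clean in every lung: beside its Y-linked transcripts SCR lung 5 had 27.4 CPM of Xist and PT lung 6 had 7.29 CPM, and SCR lung 6 had 4.66 CPM of Y-linked transcripts beside 779 CPM of Xist. The fits by sex rest on these calls. Several marker lists set SCR lungs 1 to 3 apart, and the genes described here set PT lung 5 apart. The tissue label held: 7 of 7 alveolar type 2 markers were measured, with a summed level of 18848 to 48152 CPM, which are counts scaled to the size of each library.

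Per length, in the FPKM of the authors, Pcna, the sliding clamp that holds DNA polymerase on its template, had the highest level of the 38 genes in CTR lungs, with 17.6 ± 3.65 FPKM (SD, n = 4). Next came the helicase subunits Mcm4 (8.02 ± 1.31), Mcm3 (6.39 ± 0.89), Mcm7 (6.10 ± 0.35), Mcm6 (4.72 ± 0.39) and Mcm5 (4.54 ± 1.20), all in FPKM, of which Mcm6 and Mcm5 differed by less than their SD. The highest mitotic gene was Ccnb2, a B-type cyclin that activates Cdk1, with 3.12 ± 1.06 FPKM, beside Cdc20, which activates the anaphase promoting complex, with 3.09 ± 0.25 FPKM. The lowest were Cenpf (0.20 ± 0.05 FPKM) and Cenpe (0.28 ± 0.10 FPKM), large proteins of the kinetochore, the structure that ties chromosomes to the spindle. Mki67, the gene of the proliferation antigen Ki-67, was at 1.75 ± 0.65 FPKM.

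**Figure D1:**
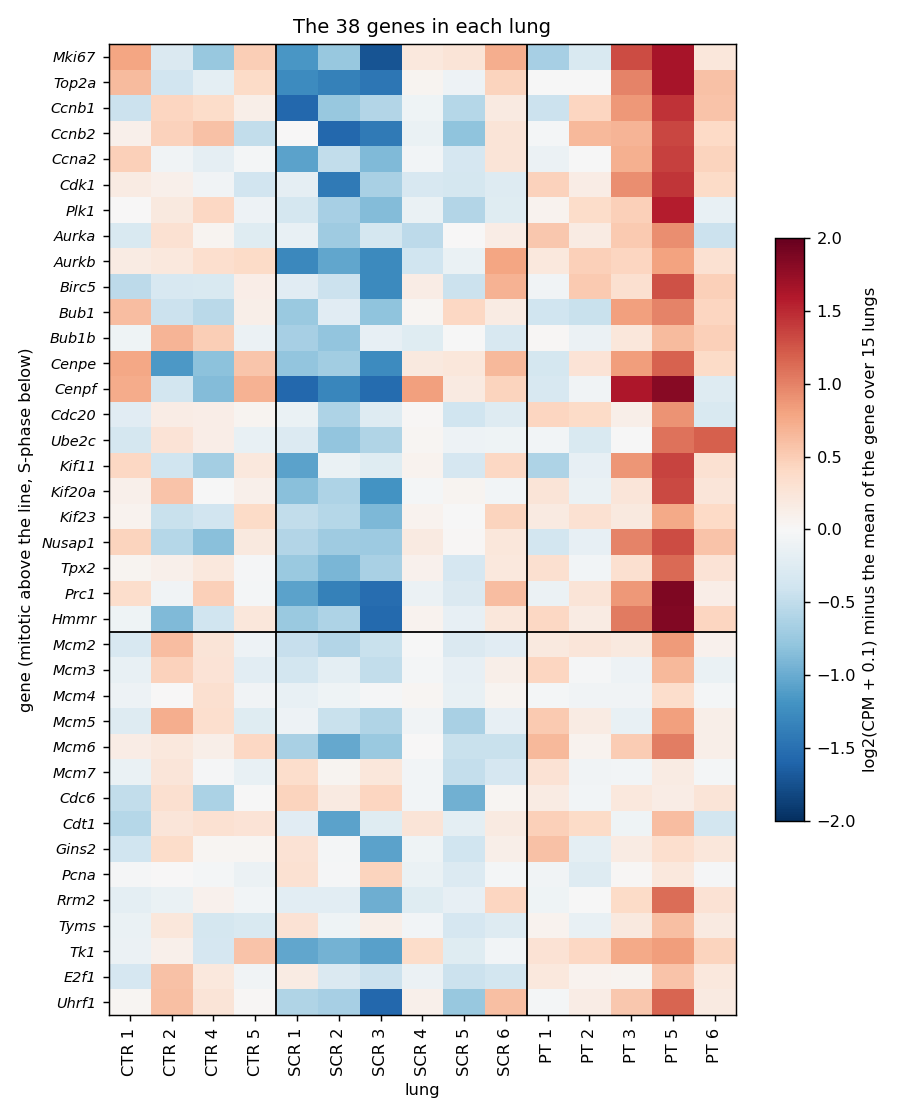
Heat map of the 38 genes (rows, mitotic above the line, S-phase below) in the 15 lungs (columns, by group), as log2(CPM + 0.1) minus the mean of the gene over the lungs. PT lung 5 is red in nearly every row, SCR lungs 1 to 3 are blue in most mitotic rows, and Pcna, Mcm4 and Mcm7 vary little.

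Lung by lung, the mitotic genes moved together. The mean log2 CPM of the 23 genes was 2.29, 2.04, 2.0 and 2.23 in CTR lungs 1, 2, 4 and 5. The 6 SCR lungs ranged from 1.18 to 2.37 (median 1.68), and the values were 2.10, 2.22, 2.79, 3.41 and 2.43 in PT lungs 1, 2, 3, 5 and 6. SCR lungs 1 to 3 lay between 1.18 and 1.39, below the other lungs, while SCR lungs 4 to 6 lay between 1.96 and 2.37 and overlapped with CTR. PT lung 5 was the highest of the 15 lungs for 21 of 23 mitotic genes, and PT lung 3 was among the 3 highest for 16 of 23. For 10 mitotic genes (Mki67, Top2a, Ccnb1, Ccna2, Aurkb, Cenpf, Kif20a, Kif23, Tpx2 and Prc1), SCR lungs 1, 2 and 3 were all below every other lung. The same held for 3 S-phase genes (Mcm2, Mcm6 and Tk1). The share of all genes with this order was not computed, so these counts are descriptions only. The correlation of each mitotic gene with the mean of the others over the 15 lungs was 0.60 (Bub1b) to 0.97 (Top2a), given as a description over lungs that share these differences in level.

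The S-phase genes varied less. Their mean log2 CPM was 3.19, 3.69, 3.45 and 3.39 in the CTR lungs, 2.96 to 3.38 in SCR lungs (median 3.15), and 3.63, 3.44, 3.56, 4.02 and 3.49 in the PT lungs, so CTR overlapped with both other groups while every PT lung lay above every SCR lung. PT lung 5 was again the highest lung, for 10 of 15 genes. The ratio of the highest to the lowest lung was 1.42 for Mcm4, 1.64 for Pcna and 1.77 for Mcm7, against 7.06 for Uhrf1 and 11.9 for Hmmr, the widest of the 38. Pcna (correlation with the other S-phase genes of -0.03), Cdc6 (0.17) and Mcm7 (0.27) did not follow their set, while Mcm2 (0.90) and Mcm5 (0.90) followed it most closely.

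**Figure D2:**
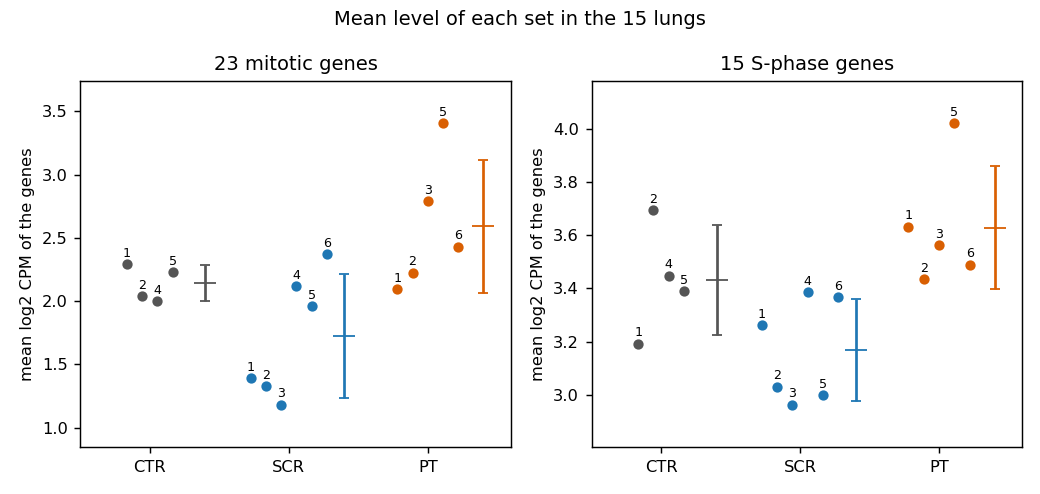
Mean log2 CPM of the 23 mitotic genes (left) and the 15 S-phase genes (right) in each lung (points, numbered by lung), with the mean ± SD of each group beside them. SCR lungs 1 to 3 lie at 1.18 to 1.39 in the mitotic panel, and PT lung 5 is the highest lung in both panels.

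PT-bearing against SCR-treated lungs gave the widest difference, and it asks whether a growing tumour and its secretome alone leave the same cell cycle transcripts in the lung. Of the mitotic genes, 23 of 23 had a fold change above 1, with a median log2 fold change of 0.85, and of the S-phase genes 14 of 15, with a median of 0.41, against -0.01 over all genes tested. With edgeR's quasi-likelihood test, 18 of 23 mitotic and 8 of 15 S-phase genes were higher at an unadjusted p under 0.05, against 6.19% of all genes tested. After Benjamini-Hochberg adjustment over all genes, 0 of 38 passed 0.05, where 0.0378% of all genes did. DESeq2 called 5 of the 38 (Cdk1, Plk1, Hmmr, Mcm2 and Mcm6), where it called 1.39% of all genes, and edgeR's likelihood ratio test 3 (Cdk1, Hmmr and Mcm6), where it called 1.15%, all higher in PT. In the quasi-likelihood test, Mcm6 alone passed with no filter (adjusted p = 0.0310), with sex as a covariate (0.0229) and without SCR lung 4 (0.0468). Of all genes, 0.0406%, 0.12% and 0.019% passed in these fits, in that order. Cdk1, Aurkb and Mcm6 passed without SCR lung 6, where 0.607% of all genes did. The groups did not overlap for 3 genes, Cdk1, Mcm2 and Mcm6, against 0.895% of all genes.

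Cdk1, the kinase that drives entry into mitosis, was at 7.45, 6.0, 10.4, 14.7 and 7.08 CPM in PT lungs 1, 2, 3, 5 and 6, against 1.95 to 4.74 CPM in SCR lungs (median 4.26) and 6.07, 5.82, 5.16 and 4.12 CPM in CTR lungs. Every PT lung was above every SCR lung. The fold was 2.37 (log2 1.25 ± 0.25 SE, adjusted p = 0.0849, edgeR). Its partners had like differences: Ccnb1 was 2.34-fold higher (log2 1.23 ± 0.35), Ccnb2 2.23-fold (1.16 ± 0.35) and Ccna2, cyclin A, which acts from S phase to early mitosis, 1.94-fold (0.96 ± 0.28), with adjusted p of 0.190, 0.206 and 0.202 (edgeR). PT lung 5 was the highest lung for each of the 4, at 4.48 CPM for Ccnb1, 8.6 for Ccnb2 and 16.5 for Ccna2.

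Hmmr, a spindle protein also known as the hyaluronan-mediated motility receptor, had the largest fold of the 38 genes, 2.48 (log2 1.31 ± 0.36 SE, adjusted p = 0.172, edgeR). It was at 3.07, 2.57, 4.76, 8.45 and 3.11 CPM in PT lungs 1, 2, 3, 5 and 6, at 0.71 to 2.68 CPM in SCR lungs (median 1.73), and at 2.12, 1.19, 1.70 and 2.67 CPM in CTR lungs. PT lung 2 lay just below the highest SCR lung, so the groups overlapped by 1 lung. Prc1, which bundles the microtubules of the spindle midzone, was 2.35-fold higher (log2 1.23 ± 0.40). Its PT values were 5.76, 7.51, 11.6, 23.1 and 6.92 CPM, its SCR values 2.13 to 9.65 CPM (median 4.04), and SCR lung 6 exceeded 3 of the PT lungs. The other midzone and spindle genes, the motors Kif11, Kif20a and Kif23 and the microtubule-binding Nusap1 and Tpx2, had log2 fold changes of 0.56 (Kif23) to 0.88 (Kif20a), and of these Kif11 did not pass an unadjusted p of 0.05.

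Among the mitotic kinases, Plk1, which acts at centrosomes and kinetochores, was 2.15-fold higher in PT (log2 1.11 ± 0.30 SE, adjusted p = 0.162, edgeR). Its PT values were 1.92, 2.37, 2.58, 5.58 and 1.63 CPM, and the SCR values 0.946 to 1.64 CPM with a median of 1.29. PT lung 5 was far above the others, and PT lung 6 was within the SCR range. Aurora A (Aurka), Aurora B (Aurkb) and its passenger complex partner Birc5 (survivin) had log2 fold changes of 0.68 ± 0.26, 0.85 ± 0.34 and 0.72 ± 0.31. Of the checkpoint and kinetochore genes 1 of 4 passed, with 0.63 ± 0.21 for Bub1b, which passed an unadjusted p of 0.05, and 0.53 ± 0.32 for Bub1, 0.70 ± 0.41 for Cenpe and 1.07 ± 0.54 for Cenpf, which did not. Cdc20 and Ube2c, which work with the anaphase promoting complex, were at 0.62 ± 0.20 and 0.80 ± 0.28. Mki67 (0.88 ± 0.48) did not pass, while Top2a, the topoisomerase that untangles chromosomes, did (1.20 ± 0.38).

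**Figure D3:**
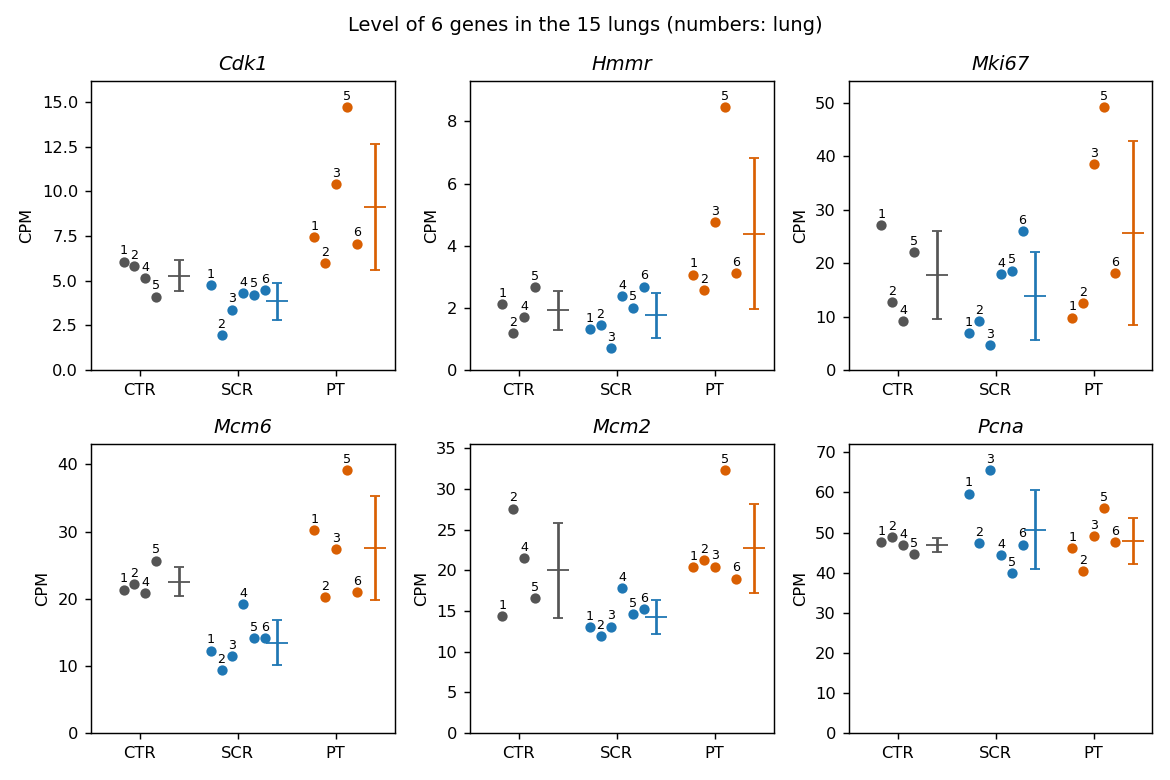
CPM of Cdk1, Hmmr, Mki67, Mcm6, Mcm2 and Pcna in each lung (points, numbered by lung) with the mean ± SD of each group beside them, each axis from 0. Cdk1, Mcm2 and Mcm6 have every PT lung above every SCR lung, and Pcna is highest in SCR lungs 1 and 3 at 59.7 and 65.6 CPM.

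In the S-phase set, Mcm6 had the smallest p of the 38 genes in this comparison, at 2.05-fold higher in PT (log2 1.04 ± 0.19 SE, adjusted p = 0.0638, edgeR). It is a subunit of the helicase ring, and its levels were 30.3, 20.2, 27.4, 39.2 and 20.9 CPM in PT lungs 1, 2, 3, 5 and 6, 9.38 to 19.2 CPM in SCR lungs (median 13.2), and 21.4, 22.1, 20.9 and 25.7 CPM in CTR lungs. SCR lay below both other groups without overlap. Mcm2 (1.59-fold, log2 0.67 ± 0.18), Mcm5 (1.58-fold, 0.66 ± 0.21) and Mcm3 (1.30-fold, 0.38 ± 0.18) of the same ring were also higher at an unadjusted p under 0.05, while Mcm4 (log2 0.09 ± 0.11) and Mcm7 (0.08 ± 0.15) were not, although the 6 proteins form the ring together. Tk1, thymidine kinase, was 1.96-fold higher (0.97 ± 0.28), Rrm2, the small subunit of ribonucleotide reductase, 1.5-fold (0.59 ± 0.24), Uhrf1, which copies DNA methylation to the new strand, 1.74-fold (0.80 ± 0.32), and the transcription factor E2f1 1.39-fold (0.47 ± 0.17).

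Pcna (log2 -0.08 ± 0.13 SE), Tyms, thymidylate synthase (0.25 ± 0.17), the origin licensing factors Cdc6 (0.07 ± 0.26) and Cdt1 (0.41 ± 0.25), and the helicase partner Gins2 (0.39 ± 0.25) did not pass. Pcna was at 39.9 to 65.6 CPM in SCR lungs (median 47.2), at 46.2, 40.4, 49.2, 56.1 and 47.6 CPM in PT lungs, and at 47.5, 48.8, 46.9 and 44.7 CPM in CTR lungs, and the 3 groups overlapped. Mcm7 had its highest lung in SCR lung 1, at 34.1 CPM, where Mcm6 was at 12.3 CPM. Both promoters hold E2F elements.

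Against CTR, the SCR-treated lungs had lower values, and this comparison asks what the injected secretome does on its own. Negative log2 fold changes were found for 22 of 23 mitotic genes (median -0.38) and for 11 of 15 S-phase genes (median -0.27), against 0.01 over all genes. At an unadjusted p under 0.05, 1 mitotic gene (Bub1b) and 3 S-phase genes (Mcm2, Mcm5 and Mcm6) were lower, where 10.2% of all genes were, so in this fit the share among the 38 was close to the background. That reading depends on how sex is treated, since every CTR lung is male. With sex as a covariate 13 mitotic and 6 S-phase genes were lower, against 10.7% of all genes, and in male lungs alone 11 and 6, against 11.8%. The SCR lungs called male were lungs 1, 2, 3 and 5, mostly those with the lowest mitotic levels. Neither fit can thus tell the part of sex from that of SCR lungs 1 to 3. After adjustment 0 of 38 passed by edgeR's quasi-likelihood test, where 0.113% of all genes did. DESeq2 and edgeR's likelihood ratio test each called 1, Mcm6, where they called 3.61% and 2.19% of all genes, so that these shares are near their background too. Mcm6 also passed with sex as a covariate (adjusted p = 0.0479, edgeR), where 0.12% of all genes did. The groups did not overlap, with SCR lower, for 2 genes, Mcm6 and Plk1, against 2.52% of all genes.

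Mcm6 was at 0.60 of its CTR level (log2 -0.74 ± 0.20 SE, adjusted p = 0.10, edgeR). Mcm2 (-0.48 ± 0.19), Mcm5 (-0.52 ± 0.22) and Bub1b, the checkpoint kinase BubR1 (-0.63 ± 0.22), followed, with adjusted p of 0.194, 0.224 and 0.161 (edgeR). For Bub1b the CTR values were 4.80, 8.20, 7.23 and 4.68 CPM, and the SCR values 2.90 to 5.06 CPM with a median of 4.18, so that 2 CTR lungs lay below the highest SCR lung. Mcm2 and Mcm5 also had wide CTR values, with 14.4, 27.6, 21.5 and 16.6 CPM for Mcm2 in CTR lungs 1, 2, 4 and 5. With each of the 15 lungs left out in turn, Mcm6 passed an unadjusted p of 0.05 in 15 of 15 fits (log2 -0.88 to -0.66), Bub1b in 14, Mcm2 in 13 and Mcm5 in 10. The p was highest without CTR lung 2, at 0.138 for Mcm2, 0.191 for Mcm5 and 0.0609 for Bub1b (edgeR). Birc5 was the only mitotic gene with a log2 fold change above 0 (0.11 ± 0.34), and Cdc6, Pcna, Tyms and Mcm7 those of the S-phase set (0.00 to 0.25).

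These lower values were mostly lost without SCR lungs 1 to 3, in a fit that also changes the balance of the sexes. Without them, the mitotic median was -0.04 and the S-phase median -0.11, with 0 mitotic genes and 1 S-phase gene (Mcm6, log2 -0.47) at an unadjusted p under 0.05 by edgeR, where 5.41% of all genes were lower. Of the SCR lungs left in that fit, lungs 4 and 6 were called female, while every CTR lung was called male. Group and sex are thus mixed in it, so it cannot tell the part of SCR lungs 1 to 3 from that of sex. SCR lung 5, called male, had a mitotic mean log2 CPM of 1.96, below every CTR lung. SCR lungs 1 to 3 also differed in other transcripts. The summed level of 8 of 8 measured B cell markers was 32 to 68.1 CPM in them against 164 to 472 CPM in the other lungs, that of 6 of 6 mesothelial markers 15.8 to 109 CPM against 120 to 372 CPM, that of 3 of 3 club cell markers 45728 to 111523 CPM against 22648 to 42051 CPM, that of 7 of 7 fibroblast markers 644 to 884 CPM against 995 to 1818 CPM, and that of 7 of 7 glucocorticoid response genes 1174 to 1532 CPM against 415 to 748 CPM. These are sums, and not every marker of a list followed. Sgk1, a glucocorticoid response gene, was at 194 to 213 CPM in SCR lungs 1 to 3 and 166 to 319 CPM in the others. Dcn, a fibroblast marker, was at 144 to 184 CPM and 81.0 to 259 CPM. The mean log2 CPM of the club cell markers also overlapped, at 12.3 to 13.6 and 11.4 to 12.5. None of these markers was at 0 in every lung, and their part in the lower cell cycle values was not tested.

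PT-bearing lungs against CTR lungs, the comparison that asks what a tumour at a distance does to the lung, gave higher values with wide spread. For mitotic genes 22 of 23 had a log2 fold change above 0, with a median of 0.52, and for S-phase genes 14 of 15, with a median of 0.18, against 0.01 over all genes. At an unadjusted p under 0.05, 3 mitotic genes and 0 S-phase genes were higher by edgeR's quasi-likelihood test, where 2.93% of all genes were. No gene of the 15870 passed adjustment (0%), the 38 included, by that test, while 1216 had an unadjusted p under 0.05 and DESeq2 called 17 genes (0.0938%) and the likelihood ratio test 11 (0.0693%), 0 of them among the 38. The groups overlapped for each of the 38, where 1.51% of all genes had every PT lung above every CTR lung. The 3 mitotic genes were Hmmr (2.27-fold, log2 1.18 ± 0.40 SE, adjusted p = 0.559), Birc5 (1.78-fold, 0.83 ± 0.35, adjusted p = 0.610) and Cdk1 (1.73-fold, 0.79 ± 0.28, adjusted p = 0.573), all by edgeR. Birc5 was at 2.69, 4.09, 3.53, 6.98 and 3.97 CPM in PT lungs and at 1.94, 2.24, 2.26 and 3.09 CPM in CTR lungs, where PT lung 1 was within the CTR range.

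PT lungs 3 and 5 carried most of this difference. Without PT lung 5 alone, the mitotic median was 0.27 with 1 mitotic gene at an unadjusted p under 0.05 (Hmmr), where 1.97% of all genes were higher, and the S-phase median 0.03. Mki67 was at 38.6 and 49.2 CPM in these 2 lungs, against 9.83, 12.6 and 18.2 CPM in PT lungs 1, 2 and 6 and 27.1, 12.7, 9.21 and 22.1 CPM in CTR lungs. Without them, an alternative added after the values were seen, the mitotic median was 0.07 with 0 genes at an unadjusted p under 0.05 (edgeR, 1.65% of all genes higher), and the S-phase median 0.08. They are also the PT lungs from females, and all CTR lungs came from males, so for PT against CTR the sex of these 2 lungs and their level cannot be told apart. Among males alone the mitotic median was 0.08 for PT against CTR, -0.65 for SCR against CTR and 0.77 for PT against SCR, with 0 mitotic genes higher, 11 lower and 15 higher at an unadjusted p under 0.05. Of all genes, 2.21% were higher, 11.8% lower and 8.78% higher in these fits. Their SCR lungs were lungs 1, 2, 3 and 5, so SCR lungs 1 to 3 made up most of that group.

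The difference between PT and SCR was smaller without SCR lungs 1 to 3 or without PT lungs 3 and 5. Leaving them out also changes the balance of the sexes. Without SCR lungs 1 to 3, the mitotic median was 0.49, with 6 of 23 mitotic and 5 of 15 S-phase genes higher at an unadjusted p under 0.05 by edgeR, against 5.28% of all genes. Without PT lungs 3 and 5, it was 0.50, with 4 and 4 genes, against 5.34% of all genes. Without all 5 lungs it was 0.14, with 1 and 1, against 5.47%, so that these last counts are near the background. The S-phase median was 0.32 in that last fit. Its PT lungs (1, 2 and 6) were all called male but SCR lungs 4 and 6 female, so group and sex are mixed in it. With sex as a covariate in all 15 lungs, 19 mitotic and 8 S-phase genes were higher, against 6.69% of all genes. Sex is mixed with single lungs there too, since SCR lungs 1 to 3 were all called male and PT lungs 3 and 5 female. Cdk1 and Mcm6 passed an unadjusted p of 0.05 in PT against SCR in all 33 fits, the main one included, and Mcm6 did so also in SCR against CTR. These fits share most of their lungs.

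**Figure D4:**
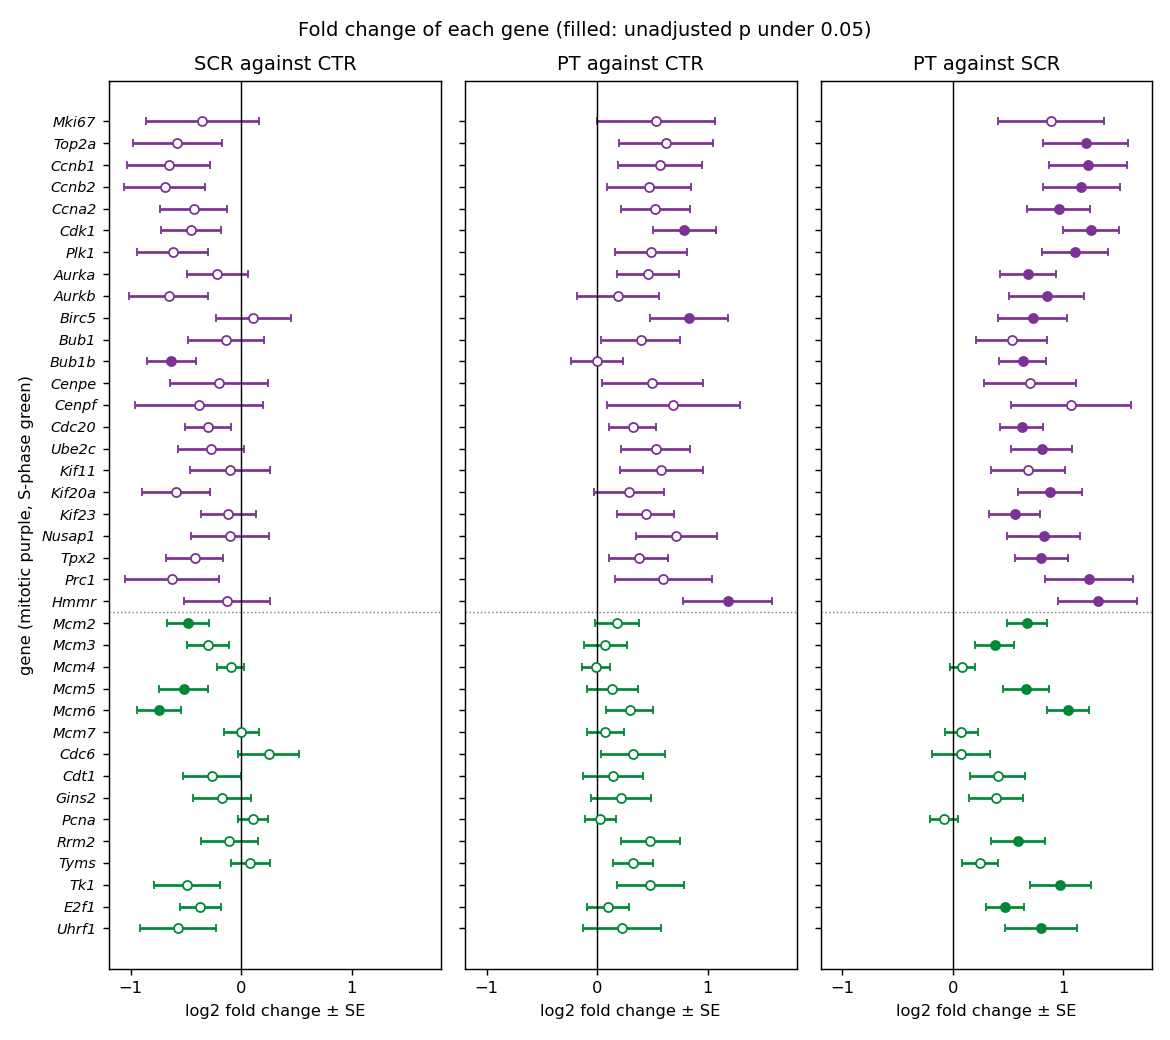
Log2 fold change (edgeR) ± SE (derived from the test statistic) of each of the 38 genes in the 3 comparisons. Mitotic genes are above the dotted line and S-phase genes below it, filled where the unadjusted p is under 0.05. Points lie mostly left of 0 for SCR against CTR, right of 0 for PT against CTR, and farthest right for PT against SCR, with 18 filled mitotic and 8 filled S-phase points.

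Related genes outside the 38 were read from lists of the same pathways. In PT against SCR, 7 of 16 tested kinetochore genes, 10 of 16 further spindle genes and 3 of 12 condensin and cohesion genes were higher at an unadjusted p under 0.05, with median log2 fold changes of 0.61, 0.72 and 0.52, where 6.19% of all genes were higher, and 0 were lower. Kif2c, a motor that takes microtubules apart, was at 1.48 (adjusted p = 0.0716, edgeR), Ckap2, a spindle protein, at 1.67, and Cenpn, which reads the centromere, at 0.69. Replication genes moved less, with 4 of 30 higher (median 0.14), among them Clspn (1.09) and Mcm10 (0.74), and nucleotide supply 1 of 7 (Dck, 0.67). Of the G2/M control genes 3 of 11 were higher, among them Cdc25b (0.45) and the transcription factor Foxm1 (0.67), and 1 was lower, Wee1 (-0.91), the kinase that holds Cdk1 inactive. The Wee1 difference lay in SCR lungs 1 to 3, at 15.9, 17.8 and 22.3 CPM. SCR lungs 4 to 6, at 6.51 to 8.96 CPM, were within the PT range of 4.38 to 9.80 CPM. Of the E2F and retinoblastoma family 3 of 12 were higher, E2f2 (0.31), E2f7 (0.79) and E2f8 (0.91), and 1 was lower. Of the G1 cyclins and their kinases 1 of 9 was higher, Ccne1 (0.77), and among 12 CDK inhibitors and antiproliferative genes Cdkn2c (0.45) was higher and Cdkn2a (-1.17) lower.

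In SCR against CTR, where 10.2% of all genes were lower and 8.58% higher at an unadjusted p under 0.05, 2 of 16 kinetochore, 3 of 16 spindle, 2 of 12 condensin and 2 of 9 G1 cyclin genes, and 0 of 30 replication genes were lower, and 2 of 30 replication genes were higher. Kif2c was at a log2 fold change of -1.10, Ncapd2 at -0.65 and Ccnd1, cyclin D1, at -0.49. G2/M control genes went both ways, with Wee1 (0.79) and Cks2 (0.64) among 3 higher and Pkmyt1 (-0.66) lower. Wee1 in SCR lungs 4 to 6 lay within its CTR range of 5.99 to 9.17 CPM. In PT against CTR, where 2.93% of all genes were higher, 5 of 16 kinetochore genes were, led by Cenpk (1.31) and Spc24 (0.56), but 1 of 16 spindle genes (Ckap2, 1.07) and 0 of 30 replication genes by edgeR. None of the genes of these pathway lists passed an adjusted p of 0.05 in any of the 3 comparisons (edgeR).

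Cells known to divide in or pass through the lung were read from marker lists. Of 8 mature neutrophil markers, 8 were tested, with a summed level of 967 to 1748 CPM in PT lungs, 169 to 1518 CPM in SCR lungs and 251 to 1087 CPM in CTR lungs. These cells no longer divide. Granulocyte precursor markers, 5 of 9 tested, summed to 26.8 to 94.2 CPM in PT, 3.18 to 74.6 CPM in SCR and 31.3 to 103 CPM in CTR lungs, and were low, at 26.8 and 27.4 CPM, in PT lungs 5 and 3. Alveolar macrophage markers, 6 of 6 tested, summed to 1472, 1235 and 1426 CPM in PT lungs 3, 5 and 6. The sums were 671 and 562 CPM in PT lungs 1 and 2, and 2050 CPM in SCR lung 1. Chil3 alone made up 1801 CPM in SCR lung 1. The mean log2 CPM of the 6 was highest in PT lung 3, at 6.17 against 6.04 in SCR lung 1. The summed level of T and NK cell markers, 8 of 8 tested, was highest in PT lung 5, at 290 CPM against 84.9 to 240 CPM elsewhere. Gzma alone made up 156 CPM of it there. Gzma and Ncr1 were each highest in PT lung 5. The T cell markers Cd3e, Cd3g and Cd3d were highest in SCR lung 6, at 6.96, 11.6 and 5.8 CPM. The mean log2 CPM of the 8 was also highest in SCR lung 6, at 4.14. B precursor markers, 0 of 5 tested, summed to 0.335 to 1.79 CPM, with 1 read of Rag2 in all lungs together. The part of these cells in the cell cycle values was not tested.

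GC content also differed between the sets, with a median of 46.6% for mitotic genes, 52.7% for S-phase genes and 49.6% for all genes tested. With a correction for it, added after the values were seen, the medians for PT against SCR were 0.85 and 0.34, and 21 mitotic and 7 S-phase genes were higher at an unadjusted p under 0.05 (edgeR), against 6.08% of all genes. Within CTR, Mki67, Cenpe, Cenpf, Bub1, Kif11 and Nusap1 were higher in lungs 1 and 5 than in lungs 2 and 4, while Bub1b, Mcm2, Mcm3, Mcm5 and E2f1 were higher in lungs 2 and 4.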

How the data were processed

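RNA of 15 lungs was sequenced by the authors, who, per the paper and the submitters' notes, trimmed and quality-filtered reads (cutadapt 1.15), removed contaminants with Bowtie2 2.3.3.1, aligned to GRCm38 with STAR 2.5.2b and counted with featureCounts 1.5.3. The strand setting is not given in the sources used here. The deposited counts are raw reads per Ensembl gene, with the authors' gene length (a value of another kind, in bases) and GC percent beside them. The deposited FPKM, for 16137 genes, were normalized by the authors with EDASeq and were used for levels per length and for alternatives.

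Counts were tested in 1 quasi-likelihood fit of all 15 lungs (edgeR 4.0.16, R 4.3.3, TMM factors 0.879 to 1.08, robust dispersion, default filter on low counts), and p-values were adjusted over 15870 genes. CPM use TMM library sizes, and log2 CPM a prior count of 2. The quasi-likelihood test gives no SE, so the SE shown is the absolute log2 fold change divided by the square root of the F statistic. The labels do not say more than that each library is 1 lung, so p-values measure the spread between these lungs. Alternatives were other normalizations and filters, DESeq2 1.42.0, limma 3.58.1 on log2(FPKM + 0.5) or + 0.1, replicate block, sex and left-out lungs, and GC correction. All 38 genes and, per pathway list and comparison, the 3 genes with the smallest p could be named. The members and lists were chosen with earlier results of these data known. Gene windows came from RefSeq (GRCm38.p6).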

Additional observations from a re-analysis of the deposited data

Results flagged for a closer look

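In 9 of 114 combinations of a gene and a group (7.89%), 1 lung lay far from the others of its group by Dixon's test at the 95% level, where chance gives about 1 in 20. PT lung 5 was the lung in 6 of them, each time as the highest: Plk1 at 5.58 CPM (others 1.63 to 2.58), the midzone motor Kif20a at 8.67 CPM (others 3.1 to 4.07), Tpx2 at 11.6 CPM (others 5.08 to 6.61), Mcm2 at 32.3 CPM (others 19.0 to 21.3), Mcm4 at 38.7 CPM (others 28.7 to 29.4) and E2f1 at 15.9 CPM (others 11.1 to 12.4). The 5 PT lungs thus include 1 library set apart as the highest for these 6 genes, and the cause was not tested. In CTR, Ccna2 was high in lung 1 at 8.86 CPM (others 5.57 to 6.13) and Cdt1 low in that lung at 4.13 CPM (others 7.31 to 7.69). Kif20a was high in CTR lung 2 at 5.07 CPM (others 3.36 to 3.65).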

How the results depend on the processing

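For the number of genes called over the whole table at an adjusted p under 0.05, SCR against CTR (18) gave 0 with library size alone, with only the 2 groups compared, with the replicate block, in male lungs, without SCR lungs 1 to 3 and without these and PT lungs 3 and 5, 2 with limma on log2(FPKM + 0.5), log2(FPKM + 0.1) or FPKM of at least 1 in 4 lungs, 5 without PT lungs 3 and 5, 10 with GC correction, 42 with no filter, 348 with the likelihood ratio test and 560 with DESeq2. PT against CTR (0) gave 1 in male lungs, without PT lungs 3 and 5 and without these and SCR lungs 1 to 3, 3, 2 and 3 with the 3 limma settings in the order above, 11 with the likelihood ratio test and 17 with DESeq2. PT against SCR (6) gave 1 without SCR lungs 1 to 3, 2 without PT lungs 3 and 5, 3 without all 5 lungs, 11 with no filter, 19 with sex as a covariate, 183 with the likelihood ratio test and 238 with DESeq2. Mitotic genes at an unadjusted p under 0.05 in SCR against CTR (1) numbered 0 without SCR lungs 1 to 3 and without all 5 lungs, 2 with only the 2 groups compared and with GC correction, 3 with the replicate block and without PT lungs 3 and 5, 6, 8 and 4 with the limma settings, 13 with sex as a covariate and 11 in male lungs. S-phase genes (3) numbered 1 with the replicate block, without SCR lungs 1 to 3 and without all 5 lungs, and 6 with sex as a covariate and in male lungs. All these genes were lower. Of all genes, 5.41% were lower without SCR lungs 1 to 3, 5.36% without all 5 lungs and 9.6% without PT lungs 3 and 5. The share was 7.68% with only the 2 groups compared, 9.92% with GC correction and 7.11% with the replicate block. It was 8.11%, 8.08% and 8.59% with the limma settings, 10.7% with sex as a covariate and 11.8% in male lungs. In PT against CTR, mitotic genes (3) numbered 0 with sex as a covariate, in male lungs, without PT lungs 3 and 5 and without all 5 lungs, and 1 with FPKM of at least 1, and S-phase genes (0) numbered 1 with library size alone. Of all genes, 2.44%, 2.21%, 1.65%, 4.29%, 4.46% and 4.22% were higher in these PT against CTR fits, in the order given. The mitotic median in PT against CTR moved to 0.0681 without PT lungs 3 and 5 and 0.0799 without all 5 lungs. In PT against SCR, mitotic genes (18) numbered 6 without SCR lungs 1 to 3, 4 without PT lungs 3 and 5 and 1 without all 5 lungs, S-phase genes (8) numbered 5 without SCR lungs 1 to 3 and in male lungs, 4 without PT lungs 3 and 5 and 1 without all 5 lungs, and the mitotic median moved to 0.14 without all 5 lungs, where the log2 fold changes of Nusap1 (-0.10), Prc1 (-0.0413) and Uhrf1 (-0.00354) also turned below 0. In PT against SCR, 5.28% of all genes were higher without SCR lungs 1 to 3 and 5.34% without PT lungs 3 and 5. The share was 5.47% without all 5 lungs and 8.78% in male lungs. The fits without PT lungs 3 and 5 and with GC correction were chosen after seeing the data. Fits that leave out lungs hold fewer of them, and those without SCR lungs 1 to 3 or PT lungs 3 and 5 also change the balance of the sexes. In the fits by sex, SCR lungs 1 to 3 make up most of the SCR lungs called male. Otherwise the cause was not tested.

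With each lung left out in turn, the genes called numbered 0 to 108 in SCR against CTR, 0 to 3 in PT against CTR and 1 to 96 in PT against SCR. The mitotic median ranged from -0.54 to -0.25, from 0.27 to 0.66 and from 0.58 to 0.97, and the S-phase median from -0.38 to -0.17, from 0.03 to 0.34 and from 0.34 to 0.49. Mitotic genes at an unadjusted p under 0.05 numbered 0 to 6, 1 to 5 and 13 to 22, and S-phase genes 1 to 4, 0 to 1 and 4 to 8. Of all genes, 5.8% to 11.4% were lower in SCR against CTR. The share higher was 1.59% to 4.66% in PT against CTR and 4.46% to 7.59% in PT against SCR. The lowest counts against CTR are thus near the background. PT lung 5 gave the lowest values in PT against SCR, with 13 mitotic and 4 S-phase genes without it.

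Lungs that share a number across groups did not deviate together more than other pairs did. Correlations of deviations from the group mean were -0.30 to 0.38 over 12 pairs with the same number (mean 0.00). They were -0.44 to 0.38 over 62 pairs with other numbers (mean 0.00), so the numbers were read as names only. Centring on the group itself holds the mean over all pairs near 0. With the replicate block as a term, the mitotic median was -0.50, 0.46 and 0.88, and the S-phase median -0.19, 0.30 and 0.49, in the order above.

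Few reads per gene, from 6 of Ccnb1, limit precision for the rarest mitotic genes. Sex and vehicle were not recorded per lung. Most counts change without SCR lungs 1 to 3 or PT lungs 3 and 5, and such fits also change the balance of the sexes.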

Other observations

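Over the 15 lungs, the genes outside the 38 whose log2 CPM followed the mean of the mitotic genes most closely were Cep55, which works in the last step of cell separation (r = 0.97), Ckap2 (0.97), Fignl1 (0.95), Fam64a (0.94), the Fc receptor Fcgr2b (0.93), Prr11 (0.93), Gsg2, which encodes the histone kinase haspin (0.92), Ckap2l (0.92), Mxd3 (0.92) and the spindle motor Kif22 (0.91). For the S-phase genes they were Rab3il1 (0.92), the receptor Tlr2 (0.89), Cav3 (0.89), Tubb6 (0.89), Gna15 (0.88), the spindle protein Tacc3 (0.88), P2ry6 (0.88), the actin bundler Fscn1 (0.87), 4632428N05Rik (0.87) and Cdca3 (0.87). These are descriptions over lungs that share the differences in level between SCR lungs 1 to 3, PT lung 5 and the rest.

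The mean log2 CPM of the S-phase genes exceeded that of the mitotic genes by 1.71 to 1.87 in SCR lungs 1 to 3, by 1.00 to 1.26 in SCR lungs 4 to 6 and by 0.62 and 0.77 in PT lungs 5 and 3.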
